A study of Homo sapiens with 32 samples.

Results

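The cytosolic nucleic acid sensors examined here were 8 genes, taken as the rows whose symbol was DDX58, IFIH1, DHX58, MAVS, ZBP1, IFI16, TREX1 or TBK1, of 60107 genes in the tables. Their mRNA was measured with QuantSeq, a method that sequences transcript 3′ ends, in 32 THP-1 libraries (8 groups of 4); THP-1 is a monocytic line from a human leukemia. The groups were WT, KO, HA and SA cells, each untreated or given 100 ng/ml LPS for 3 h as the labels state. The study's figure legend for these RNA data gives the same dose and time, while the general treatment line of its methods names another dose. LPS, from the outer membrane of bacteria, acts on the receptor TLR4. KO cells lack ATP-citrate lyase (ACLY), the enzyme that makes acetyl-CoA from citrate in the cytosol. WT, HA and SA cells are ACLY knockout cells that re-express, from a lentivirus with a puromycin marker, wild type ACLY, the catalytically inactive H760A mutant or the phosphorylation-deficient S455A mutant, so the WT group is also a reconstituted knockout. Whether the KO cells had been transduced is not given in the sources used here, and each genotype is represented by 1 line, so anything else that differs between lines cannot be told apart from the genotype. The study describes its data in general as coming from independent experiments, while the labels give these libraries only a replicate number within 1 line. The p-values therefore rest on the spread between libraries within a group, pooled over all 8 groups in the main fit. That spread may be technical in part.

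Cells detect misplaced or foreign nucleic acid in the cytosol with dedicated receptors. RIG-I (encoded by DDX58) and MDA5 (IFIH1) are helicases that bind viral RNA and engage the mitochondrial adaptor MAVS, and LGP2 (DHX58) is a related helicase without the signalling domain that tunes them. IFI16 is a DNA sensor of the PYHIN family, ZBP1 binds Z-form nucleic acid and starts necroptosis, and the exonuclease TREX1 removes cytosolic DNA. TBK1 is the kinase that phosphorylates IRF3 downstream of MAVS and STING and so turns on interferon genes, and secreted interferon in turn raises several of the sensors.

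Promoter sequence is shown for 3 members whose mRNA behaved differently, namely IFIH1 and DDX58, which were called both between lines and with LPS, and MAVS, whose level was flat. Each line holds the 250 bases before the RefSeq start on GRCh38.p14, 5′ to 3′ on the gene's strand, at chr2:162318685-162318934 (minus strand), chr9:32526197-32526446 (minus strand; RefSeq symbol RIGI) and chr20:3846584-3846833 (plus strand). Capitals mark, in IFIH1, matches on either strand to the core of the interferon-stimulated response element (ISRE), found at many interferon-induced genes, searched as a pair of GAAA blocks set 2 bases apart, and the GAAA pair set 1 base apart (GAAANGAAA) in DDX58, which was looked for after its sequence had been seen.
IFIH1: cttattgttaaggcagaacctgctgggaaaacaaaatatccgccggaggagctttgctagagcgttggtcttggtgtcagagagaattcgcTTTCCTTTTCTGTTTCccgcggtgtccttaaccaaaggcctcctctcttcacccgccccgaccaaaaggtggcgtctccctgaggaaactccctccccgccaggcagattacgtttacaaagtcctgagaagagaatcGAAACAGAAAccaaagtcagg
DDX58: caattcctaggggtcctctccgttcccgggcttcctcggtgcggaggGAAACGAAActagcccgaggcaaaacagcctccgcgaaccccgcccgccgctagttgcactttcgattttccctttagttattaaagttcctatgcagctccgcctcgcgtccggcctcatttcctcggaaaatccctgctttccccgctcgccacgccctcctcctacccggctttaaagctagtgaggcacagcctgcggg
MAVS: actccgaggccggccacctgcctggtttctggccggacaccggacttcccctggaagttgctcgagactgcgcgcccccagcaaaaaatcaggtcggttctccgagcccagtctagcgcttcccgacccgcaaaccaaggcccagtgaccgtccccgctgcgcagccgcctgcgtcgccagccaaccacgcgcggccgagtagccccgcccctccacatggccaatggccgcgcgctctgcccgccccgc

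RefSeq promoters matched 6 of the 8 members with 7 entries, 2 of them for IFI16; DHX58 and ZBP1 had no entry. The ISRE core was in 3.02% of 35116 promoters of this length. IFIH1 held 3 matches, which began 159, 153 and 21 bases before the start, the first 2 overlapping, and the other 5 members held none. GAAANGAAA was in 2.69% of promoters, and was present in DDX58 at 203 bases and in 1 IFI16 entry at 54 bases before the start. The letters TTCNNNGAA of the GAS element, the gamma interferon activated site, were in 6.57% of promoters and in none of the members. A kappa-B pattern, GGG and CC set 5 bases apart, was in 54.4% of promoters, and of the members with an entry IFI16 alone lacked it. Both strands were searched for every motif, and a match describes letters and not binding.

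The libraries held 6504099 to 14750815 reads on genes. All 12 monocyte markers had a mean of at least 10 normalized counts and summed to 11981 to 40716 in every library, whereas none of 4 T cell, 6 epithelial or 5 fibroblast markers reached that mean. The B cell marker PAX5 and 1 of 4 NK cell markers (NKG7) did. ACLY read 67.2 to 107 normalized counts in the 4 KO libraries and 90.7 to 117 in the 4 WT libraries, but 3′ reads outside the edited part of a gene check no knockout, so the labels could not be checked in this way. Library 1 of the SA LPS group stood apart. Of genes with a mean of at least 50 in its 3 companion libraries, 9.25% read more than 5 times below the lowest companion. The next highest such share, in KO 3, was 2.80%. It also deviated upwards, with 0.91% of these genes more than 5 times above the highest companion, beside at most 0.011% in any other library. The epithelial markers summed to 35.9 in SA LPS 1 and to at most 12.2 elsewhere, and ACLY read 329 in it. The cause was not tested. The member results that SA LPS 1 moves most, those of DHX58 and TBK1 and the calls it changes, are given with and without it.

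Levels below are normalized counts, that is reads divided by 1 size factor per library computed jointly over all 32 libraries. Differences are on the log2(normalized count + 1) scale from a limma fit over 12406 genes, with Benjamini-Hochberg adjusted p, and a gene was called at an adjusted p below 0.01. Of the members, 6 had enough reads to be tested, which left out ZBP1 and TREX1. In bulk RNA, fewer expressing cells and less RNA per cell cannot be told apart.

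RIG-I mRNA (DDX58, ENSG00000107201, chr9:32455302-32526208, minus strand) was lowest in WT cells and highest in KO cells. The 4 untreated WT libraries read 78.7, 67.0, 118 and 95.4, and the 4 KO libraries 382, 355, 535 and 274. HA cells read 239, 145, 212 and 106, and SA cells 127, 96.4, 143 and 132. Every KO library thus lay above every WT, SA and HA library, while the HA and SA ranges both overlapped that of WT. After LPS, WT cells read 211, 271, 325 and 242, KO cells 1255, 953, 981 and 706, HA cells 739, 470, 486 and 392, and SA cells 472, 418, 405 and 342. With LPS each of the 3 other lines lay wholly above WT. DDX58 rose in KO against WT by 2.09 ± 0.25 log2 (SE, adjusted p = 8.0e-07) without LPS and by 1.88 ± 0.25 (adjusted p = 4.8e-06) with LPS. In HA against WT it differed by 0.92 ± 0.25 (adjusted p = 0.022) and 0.97 ± 0.25 (adjusted p = 0.020), short of the limit; it passed in the same fit on the deposited scale (adjusted p = 0.0057 and 0.0044), on which the typical gene sits 0.15 log2 higher in HA than in WT. It also passed with the replicate number as a block over all libraries (adjusted p = 0.0047 and 0.0037) and, for the untreated cells, without HA library 4 (adjusted p = 0.0051). A pairing of HA with WT by number was not seen in the data, which limits the block. Deviations from the group mean in same-numbered WT and HA libraries correlated at r of -0.24 to 0.29 untreated and -0.33 to 0.35 with LPS. The last exons of DDX58 are also annotated to a readthrough gene on the same strand, which shares 95.8% of its last 500 bases, so reads of that transcript cannot be told apart.

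MDA5 mRNA (IFIH1, ENSG00000115267, chr2:162267074-162318684, minus strand) separated the WT, SA and HA lines. WT cells read 220, 181, 279 and 346, SA cells 514, 393, 371 and 429, HA cells 1066, 640, 754 and 563, and KO cells 903, 917, 1145 and 1212. Neither SA, HA nor KO overlapped WT. With LPS the values were 497, 460, 701 and 737 in WT, 869, 945, 1021 and 924 in SA, 2213, 1332, 1641 and 1341 in HA, and 3671, 1805, 2411 and 1883 in KO cells. HA and KO ranges overlapped in both conditions, and both lay above SA. IFIH1 rose in KO against WT by 2.05 ± 0.23 log2 (adjusted p = 3.2e-07) untreated and by 2.00 ± 0.23 (adjusted p = 5.6e-07) with LPS, a 4.07- and 4.08-fold ratio of means. The rise in HA was 1.55 ± 0.23 (adjusted p = 5.8e-05) and 1.44 ± 0.23 (adjusted p = 1.4e-04). The SA difference of 0.76 (95% interval 0.30 to 1.23) untreated and 0.68 (0.21 to 1.14) with LPS did not pass after adjustment (adjusted p = 0.998 and 0.825).

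LGP2 mRNA (DHX58, ENSG00000108771, chr17:42101404-42112714, minus strand) was scarcer and more scattered. WT cells read 42.9, 46.0, 28.0 and 31.5, SA cells 34.4, 50.9, 55.9 and 39.6, HA cells 89.5, 50.3, 79.0 and 83.8, and KO cells 267, 255, 55.4 and 166. KO library 3, the low value, is the library in which 2.80% of the genes averaging at least 50 in its companions read far below them. With LPS, WT cells read 65.8, 109, 55.1 and 101, HA cells 138, 172, 160 and 190, and KO cells 516, 434, 227 and 265. SA cells read 3.47, 109, 174 and 89.8, the first being SA LPS 1. KO and HA lay above WT in both conditions without overlap. The KO difference of 2.09 ± 0.66 log2 in each condition had adjusted p = 0.065 untreated and 0.055 with LPS. Without SA LPS 1, which widens the spread shared by all groups in the fit, the same differences were called (2.09 ± 0.36, adjusted p = 2.1e-04 and 1.8e-04). They were also called with the replicate number as a block among WT and KO libraries alone (adjusted p = 7.6e-06 and 6.9e-06), which leaves SA LPS 1 out too. With WT and KO libraries of 1 treatment fitted alone, the difference was called with LPS (adjusted p = 0.0041) and not untreated (adjusted p = 0.041). In SA against WT DHX58 differed by 0.28 untreated and by -0.61 ± 0.66 with LPS, or 0.58 ± 0.39 with LPS when SA LPS 1 was left out, none called. The HA difference of 1.00 and 1.04 was not called with that library (adjusted p = 0.33 and 0.45) or without it (0.061 and 0.081).

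**Figure D1:**
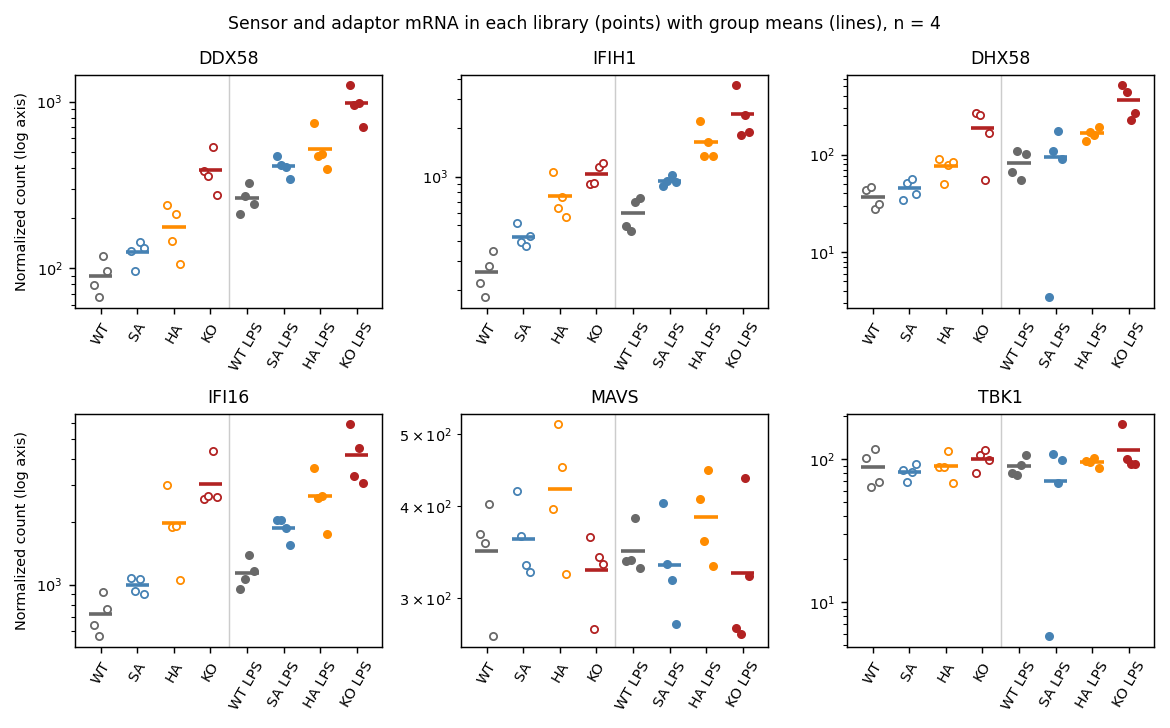
Normalized counts (log axis, a separate range for each gene) of the 6 tested members in every library, with 4 points a group from replicate 1 at the left to 4 at the right; open points are untreated, filled points LPS, and lines are group means. DDX58, IFIH1 and IFI16 climb from WT through SA and HA to KO with and without LPS, MAVS stays within 266 to 516, and SA LPS 1 is the isolated low point for DHX58 and TBK1.

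The plot of levels by library shows the order of the lines. For DDX58, IFIH1 and IFI16 the group means ran WT, SA, HA, KO within each treatment, and so did those of DHX58 in untreated cells. With LPS the DHX58 mean of SA lay above WT as a mean of normalized counts and below it on the log2 scale, and above it on both without SA LPS 1. SA overlapped WT in untreated cells for DDX58, DHX58 and IFI16 and with LPS for DHX58, and HA overlapped SA in both conditions for all but IFIH1. KO overlapped HA in both conditions for IFIH1 and IFI16, with LPS for DDX58 and in untreated cells for DHX58. The IFIH1 ranges of WT, SA and HA were separate from each other in each condition.

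The DNA sensor IFI16 (ENSG00000163565, chr1:158999968-159055155, plus strand) moved much like the RNA sensors. WT cells read 636, 564, 925 and 760, SA cells 1075, 933, 1059 and 903, HA cells 2997, 1899, 1916 and 1055, and KO cells 2562, 2652, 4377 and 2626. HA and KO lay wholly above WT, and HA spanned from the SA range into the KO range. With LPS, WT cells read 947, 1068, 1391 and 1158, SA cells 2033, 2038, 1865 and 1551, HA cells 3643, 2595, 2650 and 1752, and KO cells 5879, 3334, 4550 and 3066. All 3 other lines then lay above WT. IFI16 rose in KO by 2.07 ± 0.25 log2 (adjusted p = 1.4e-06) untreated and by 1.85 ± 0.25 (adjusted p = 8.5e-06) with LPS, and in HA by 1.38 ± 0.25 (adjusted p = 8.2e-04) and 1.19 ± 0.25 (adjusted p = 0.0040). The HA call with LPS was lost without any 1 of 6 libraries, WT LPS 1, 2 and 4 and HA LPS 1, 2 and 3 (adjusted p up to 0.032), and both HA calls were lost when WT and HA libraries were fitted alone (adjusted p = 0.015 and 0.014).

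The adaptor and the kinase that these sensors feed were not called in any comparison. MAVS (ENSG00000088888, chr20:3846799-3876123, plus strand) averaged 348 ± 57.9 (SD, n = 4) in WT, 327 ± 38.8 in KO, 422 ± 81.7 in HA and 360 ± 42.8 in SA cells, and 347 ± 25.2, 324 ± 78.3, 386 ± 51.2 and 333 ± 52.8 with LPS in the same order. All groups overlapped that of WT. The KO difference was -0.08 log2 (95% interval -0.42 to 0.26) untreated and -0.12 (-0.47 to 0.22) with LPS. TBK1 (ENSG00000183735, chr12:64452090-64502114, plus strand) averaged 88.2 ± 25.6 in WT, 101 ± 15.2 in KO, 90.1 ± 18.7 in HA and 81.8 ± 9.40 in SA cells without LPS. With LPS it averaged 89.3 ± 13.7 in WT, 115 ± 40.3 in KO and 95.9 ± 6.83 in HA, while the SA libraries read 5.79, 110, 68.5 and 98.3. The KO difference was 0.22 (-0.77 to 1.22) untreated and 0.32 (-0.68 to 1.32) with LPS. The SA difference with LPS of -0.91 ± 0.49 (adjusted p = 0.83) rested on SA LPS 1 and was 0.03 ± 0.24 without it.

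ZBP1 (ENSG00000124256, chr20:57603846-57620576, minus strand) was barely detected, with 25 reads in 9 of 32 libraries. Of these, 8 reads came from HA LPS 1, 7 from KO LPS cells and 6 from WT LPS cells, and SA cells had 0 reads with or without LPS, which allows a mean level of up to 0.601 and 0.674 normalized counts (3 reads over the 4 libraries, counting error only). TREX1 (ENSG00000213689, chr3:48465811-48467645, plus strand) had 81 reads in 22 libraries, 26 of them in SA LPS 1 and 55 in all others together. Every exonic base of TREX1 is also annotated to ATRIP, a checkpoint gene on the same strand that had 2576 reads in 32 libraries, so TREX1 reads could have been left uncounted or given to ATRIP, and its level is uncertain.

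The members were chosen with earlier results of these data known, so the counts below are descriptive and test no enrichment. Counted together, 3 of the 6 tested members (DDX58, IFIH1, IFI16) were called higher in KO against WT untreated, where 1.80% of all genes tested were called higher, and the same 3 with LPS, where 2.14% were. Of all 12406 genes, 223 and 265 were called higher in this fit, 290 and 369 without SA LPS 1, and 588 and 817 in the paired fit of WT and KO libraries alone, where 4 members were called in each condition. In HA against WT, 2 (IFIH1, IFI16) were called in each condition, beside 1.42% of all genes untreated and 1.16% with LPS (176 and 144 genes, or 310 and 198 without SA LPS 1). None was called lower. The B cell marker PAX5 was also called higher in KO than in WT, at 1.70 ± 0.35 log2 untreated and 1.99 ± 0.35 with LPS, and in KO than in HA untreated, at 2.49 ± 0.35, while the B cell marker MS4A1 was at 0 in every KO library. The summed NK cell markers ran from 185 to 263 in KO and 154 to 199 in WT untreated. With LPS they ran from 206 to 323 in KO and 121 to 205 in WT. Most of each sum was NKG7, which was not called. The NK cell marker NCAM1, too low to be tested, went the other way. It averaged 1.90 in KO and 17.1 in WT untreated, and 0.392 and 8.01 with LPS. Their part in the sensor differences was not tested. In SA against WT none of the 6 was called, as was 0% of all genes tested, by limma and by voom alike. With another method, DESeq2, at the same limit, the study reports CXCL11, IFI44, GBP1, EPSTI1 and IFIT2 as higher in S455A than in WT cells after LPS. None of these is a member. At an unadjusted p under 0.05 in limma the count was 1 member (IFIH1) among 445 genes untreated and 3 members (DDX58, IFIH1, IFI16) among 646 genes with LPS. Groups did not overlap for 4 members in KO, 3 in HA and 1 in SA against WT untreated, all higher, where 5.9%, 9% and 2.37% of all genes were higher without overlap. With LPS the counts were 4, 4 and 3, beside 6.73%, 7.09% and 1.27%. The median difference over the 6 members was 2.06 log2 in KO and 0.96 in HA untreated, and 1.86 and 1.00 with LPS, where the median over all genes lay between -0.03 and -0.01.

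**Figure D2:**
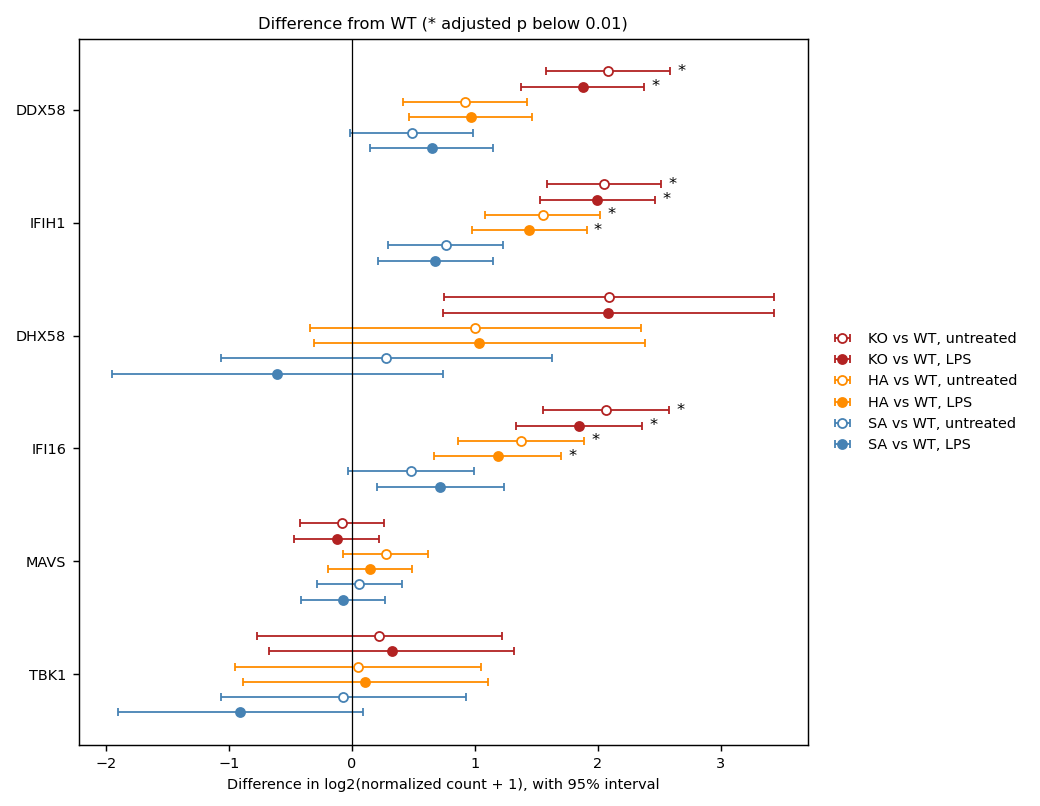
Differences from WT in log2(normalized count + 1) for the 6 tested members, with 95% intervals from the limma fit (n = 4 libraries a group); open points are untreated cells, filled points LPS, and a star marks an adjusted p below 0.01. DDX58, IFIH1 and IFI16 sit near 2 in KO, nearer 1 to 1.5 in HA and below 1 in SA, DHX58 has the same centre in KO with a wide interval, and MAVS and TBK1 intervals all take in 0.

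The plot of differences from WT sets KO beside HA. KO exceeded HA for DDX58 by 1.16 ± 0.25 log2 untreated (adjusted p = 0.018), without overlap between the groups, and by 0.91 ± 0.25 with LPS (adjusted p = 0.12). For IFIH1 the difference was 0.50 and 0.55, for IFI16 0.69 and 0.66, with overlapping groups. None of the 6 members was called in KO against HA, where 0.202% of all genes were called higher untreated and 0.00806% with LPS. These are 25 genes and 1 gene, and without SA LPS 1 they were 40 and 14, again with no member. At an unadjusted p under 0.05 there were 4 members untreated, MAVS being lower in KO (-0.35) and the sensors DDX58, IFIH1 and IFI16 higher, and 3 with LPS, among 1288 and 1308 of all genes. The DDX58 difference untreated was called without HA library 1 (adjusted p = 0.0066) and with the replicate block over all libraries (adjusted p = 0.0028). Same-numbered KO and HA libraries were not seen to pair, as their deviations correlated at r of -0.31 to 0.38. HA library 1 had the highest value of its group for all 4 of DDX58, IFIH1, DHX58 and IFI16, and so had KO LPS 1.

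LPS raised the 2 RNA sensors in every line. DDX58 rose by 1.55 ± 0.25 log2 in WT (adjusted p = 6.6e-04), 1.34 ± 0.25 in KO (adjusted p = 0.0018), 1.60 ± 0.25 in HA (adjusted p = 2.0e-04) and 1.71 ± 0.25 in SA cells (adjusted p = 6.9e-05). IFIH1 rose by 1.23 ± 0.23 in WT, 1.18 ± 0.23 in KO, 1.12 ± 0.23 in HA and 1.15 ± 0.23 in SA cells, with adjusted p between 0.0038 and 0.0088. In each line the LPS and untreated ranges of both genes were separate. These 2 calls a line stand beside 0.25% of all genes called higher in WT, 0.508% in KO, 0.387% in HA and 0.468% in SA. They used the spread pooled over all 8 groups, and when only the groups compared were fitted none of the 8 calls passed (adjusted p 0.014 to 0.057 for DDX58 and 0.030 to 0.10 for IFIH1). The IFIH1 call in HA was lost without any 1 of 21 libraries (adjusted p up to 0.071), that in SA without any 1 of 7 (SA 2 to 4 and SA LPS 1 to 4; up to 0.030), and those in WT without WT 1, WT 2, WT LPS 3 or WT LPS 4 (up to 0.038) and in KO without KO 1, KO 2, KO LPS 1 or KO LPS 3 (up to 0.038). The DDX58 call in KO was lost without KO 4 or KO LPS 1 (up to 0.019).

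None of the other members was called for LPS in any line. IFI16 differed with LPS by 0.67 in WT, 0.45 in KO, 0.48 in HA and 0.91 in SA, none called, the SA and WT groups not overlapping with their untreated cells. DHX58 differed by 1.11 in WT, 1.10 in KO and 1.14 in HA, close to the IFIH1 values but with an SE of 0.66 each, without overlap in WT and HA, and by 0.22 in SA, or 1.41 ± 0.39 without SA LPS 1 (adjusted p = 0.13). MAVS stayed between -0.12 and 0.01 in all 4 lines. TBK1 differed by 0.05 in WT, 0.15 in KO and 0.11 in HA, and by -0.79 ± 0.49 in SA, or 0.15 ± 0.24 without SA LPS 1. Groups did not overlap for 4 members in WT, 2 in KO, 3 in HA and 3 in SA, higher with LPS in each, beside 1.77%, 1.95%, 1.99% and 2.11% of all genes. For the LPS response of KO, HA or SA set against that of WT, none of the 6 members was called by limma or voom, and none had an unadjusted p under 0.05, beside 0.00806%, 0% and 0% of all genes called higher. The differences of response ranged from -0.22 to 0.10 log2 in KO, from -0.19 to 0.06 in HA and from -0.89 to 0.24 in SA, the last with DHX58 and TBK1 at the low end, which were 0.30 and 0.10 without SA LPS 1.

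**Figure D3:**
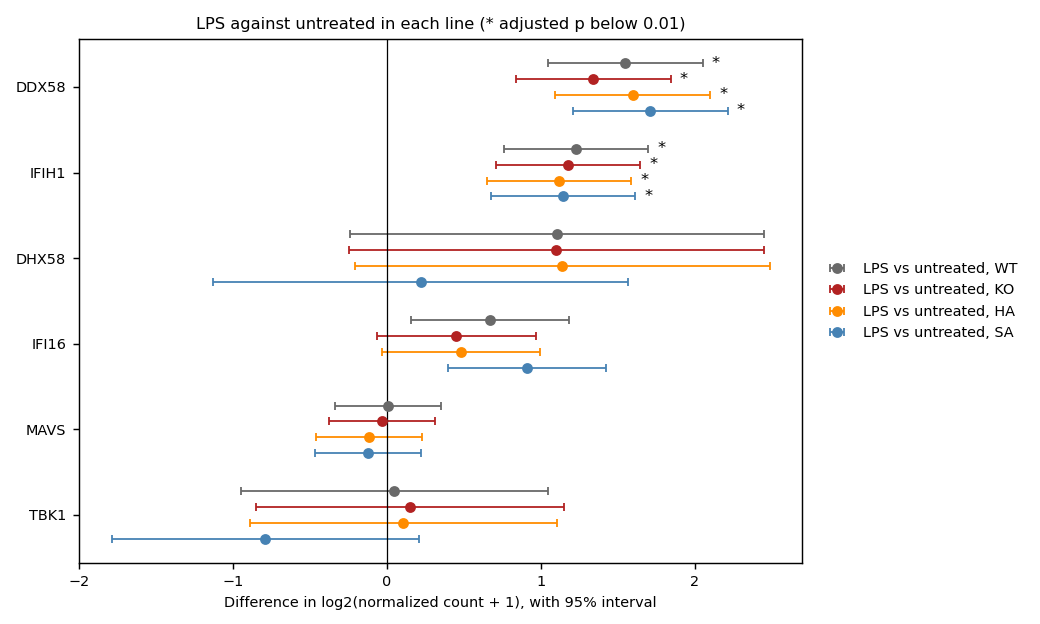
LPS against untreated cells of the same line in log2(normalized count + 1), with 95% intervals (n = 4 libraries a group) for the 6 tested members; a star marks an adjusted p below 0.01. The 4 lines lie close together for DDX58 (1.34 to 1.71) and IFIH1 (1.12 to 1.23), MAVS lies near 0, and the low SA points of DHX58 and TBK1 rest on 1 library.

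The LPS plot and the plot of levels together show that untreated KO cells had as much DDX58 (387 ± 109, n = 4) as LPS-treated SA cells (409 ± 53.5), the ranges overlapping, and more than LPS-treated WT cells by mean (262 ± 48.3) with overlapping ranges. For IFIH1, untreated KO cells (1044 ± 157) lay wholly above LPS-treated WT cells (599 ± 140), and for IFI16 likewise (3054 ± 883 against 1141 ± 187). These are comparisons of levels, without a test.

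Other genes of the pathway were taken from lists by role, chosen with earlier results of these data known, so their counts are descriptive too. Of all genes tested, 1.80% were called higher in KO against WT untreated and 2.14% with LPS. In HA against WT the shares were 1.42% and 1.16%. Of 28 further RNA sensing genes, 27 were tested, and 7 were called higher in KO against WT untreated and 8 with LPS, none lower. OAS1, OAS2 and OAS3, enzymes that activate RNase L on double-stranded RNA, were higher in KO LPS than in WT LPS cells by 1.73 ± 0.18, 1.75 ± 0.20 and 1.57 ± 0.30 log2, all called. TLR7, the endosomal receptor for single-stranded RNA, averaged 182 ± 46.9 in KO LPS against 41.4 ± 22.6 in WT LPS cells, a rise of 2.20 ± 0.36. In HA against WT, 2 of the 27 were called higher untreated (OAS1, OAS2), and 3 with LPS (OAS1, OAS2, TLR7), where TRIM65, a ubiquitin ligase for MDA5 named after its value was seen, was called lower (-0.90, adjusted p = 0.0011). LPS itself raised 1 of the 27 in WT, 2 in KO, 2 in HA and 4 in SA, beside 0.25%, 0.508%, 0.387% and 0.468% of all genes. OASL, named after its value was seen, was called in all 4 lines.

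Of 17 further DNA sensing genes, 14 were tested, with 2 called higher in KO untreated, 3 in KO with LPS, and 2 in HA in each condition, none lower. Of all genes tested, 1.80% and 2.14% were called higher in KO, and 1.42% and 1.16% in HA. AIM2, the inflammasome DNA sensor of the same PYHIN family as IFI16, averaged 9.32 ± 6.12 in WT, 14.1 ± 7.51 in SA, 51.0 ± 21.2 in HA and 193 ± 34.1 in KO cells untreated, and rose in KO by 4.50 ± 0.41 log2 (adjusted p = 1.1e-08). MNDA, another PYHIN gene, rose by 1.35 ± 0.19 in KO and 0.79 ± 0.19 in HA untreated. CGAS, the enzyme that makes the STING ligand cGAMP, was called in KO with LPS (1.43 ± 0.26, adjusted p = 3.4e-04) and in no other comparison. Of 14 genes that remove or edit nucleic acid, 12 were tested and 1, the lysosomal nuclease DNASE2, was called in KO untreated and with LPS (1.02 ± 0.14 and 0.87 ± 0.14). LPS lowered it in KO cells (-0.70 ± 0.14, adjusted p = 0.0043).

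Single genes of the complexes downstream were called in KO against WT, where 1.80% of all genes tested were called higher untreated and 2.14% with LPS. Of 24 adaptor and kinase genes 23 were tested, and 1 was called in KO untreated (IRF7, the interferon-inducible factor, 1.93, adjusted p = 0.0033, named after its value was seen) and 1 with LPS (CYLD, a deubiquitinase, 0.51 ± 0.12, adjusted p = 0.0094). No partner of ZBP1 in cell death was called among 6 tested in any of these comparisons. Of 7 interferon genes only IFNL1 had enough reads to be tested. It read 0 in all WT untreated libraries and 17.8 ± 8.66 in KO, called by limma (adjusted p = 4.7e-04). With LPS it read 2.58 ± 2.41 in WT and 79.8 ± 41.3 in KO cells, also called (adjusted p = 6.2e-05). IFNL1 passed a filter on the mean over all libraries, which its KO levels raised, so these calls are not independent of the filter. In SA against WT no gene of any of these lists was called.

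**Figure D4:**
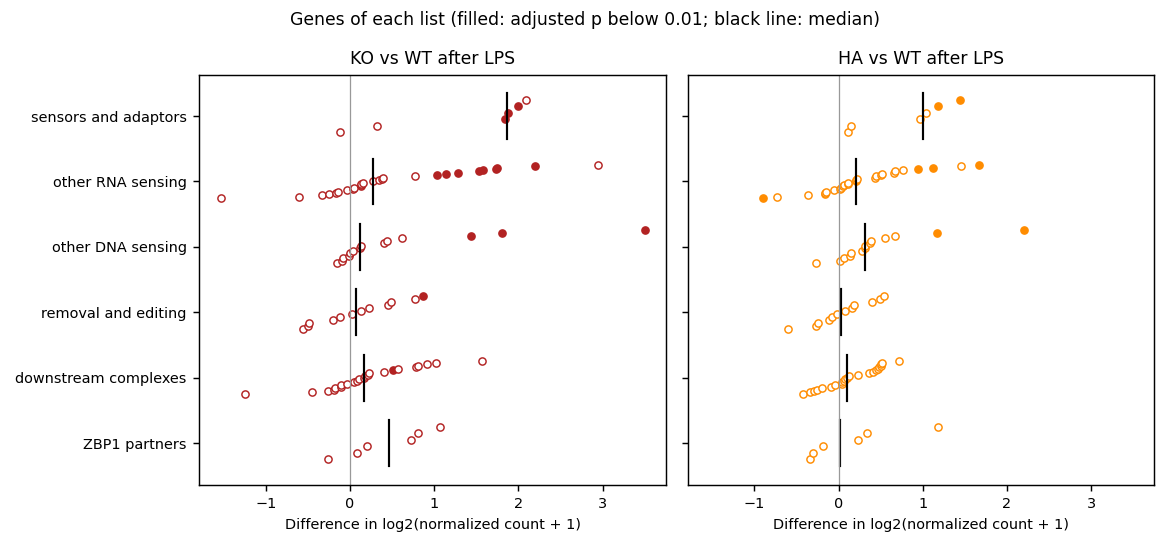
Differences from WT after LPS in log2(normalized count + 1) for each tested gene of the lists, by role, in KO (left) and HA cells (right); filled points have an adjusted p below 0.01 and black lines are list medians. The tested members are on top with medians of 1.86 and 1.00, and in the other lists most points cluster near 0 with a few filled ones to the right.

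The plot of the lists shows that their medians in KO with LPS were 0.27 log2 for RNA sensing, 0.12 for DNA sensing, 0.07 for removal and editing and 0.17 for the downstream complexes, against -0.01 for all genes, so that the called genes were a minority in each.

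Genes whose level ran most like that of a member over the 32 libraries were named by Pearson's r of log2 values, as a description. The libraries share their group structure, which alone gives high values. The 3 genes nearest DDX58 were TNFSF10 (r = 0.97), IFIT2 (0.95) and GBP5 (0.95), those nearest IFIH1 were SAMD9 (0.95), TNFSF10 (0.95) and IFI16 (0.94), and those nearest IFI16 were PARP14 (0.98), SP110 (0.98) and SAMD9L (0.96). DDX58, IFIH1 and IFI16 correlated with each other at 0.89 to 0.94. DHX58 ran most like PARP12, TAP1 and TRIM69 (0.95, 0.95 and 0.94), and its r with DDX58 was 0.60, or 0.84 over 31 libraries without SA LPS 1. Over those 31 libraries the 3 nearest DHX58 were TAP1, IRF7 and HELZ2 (0.95, 0.94 and 0.94). SAMD9 (0.96) then replaced IFIT2 near DDX58, DSE (0.94) replaced IFI16 near IFIH1, and PARP9 (0.97) replaced SAMD9L near IFI16. MAVS lay nearest DHTKD1, KPNA6 and GBF1 (0.82, 0.82 and 0.81) and between -0.34 and 0.02 with the 4 sensors. TBK1 lay nearest CBLL1, ENTPD5 and CADPS2 (0.91, 0.89 and 0.89), but without SA LPS 1 these gave way to PNPT1, MICU2 and PDE3B (0.69, 0.66 and 0.65). Its r with DDX58, IFIH1 and IFI16 was 0.09, 0.18 and 0.18 over all libraries and 0.52, 0.50 and 0.56 without SA LPS 1.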

How the data were processed

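Total RNA of THP-1 cells was sequenced as QuantSeq 3′ libraries. According to the methods, the authors used Bbduk for trimming, STAR for alignment to GRCh38, HTSeq-count for counting and DESeq2 for tests; versions and annotation release are not given in the sources used here. The authors deposited normalized counts (written with decimal commas), scaled separately for each line. All values above 0 (100.000%) were whole multiples of 1 number per library within 0.05 reads, so reads were recovered and put on 1 median-of-ratios scale over all 32 libraries. The 92 spike-in rows were left out.

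A mean deposited count of 10 or more was required, which left 12406 genes for limma 3.58.1 (R 4.3.3; eBayes with a trend) on log2(normalized count + 1), a pseudocount of 1, with a mean for each of 8 groups and Benjamini-Hochberg adjustment (limit 0.01). The fit was tested on simulated data. The members and lists were chosen with earlier results of these data known. Named genes were all members and, from each list, up to 4 genes with the largest change among those called in KO against WT with LPS and, for each tested member, the 3 genes of highest r. Depth was 6504099 to 14750815 reads (median 10247620), reads are not independent molecules. The 95% intervals come from the limma fit and carry the spread between libraries, while the floors for 0 reads cover counting error only. Between libraries of a group the chi-square per gene was 4.739 to 291.324, so none was counted as a copy. Replicate numbers came from the labels. Same-numbered libraries of WT, KO, WT LPS and KO LPS deviated together (every r above 0.1 in 6 of 28 pairs of groups), and those numbers were taken as pairs. Every pair of groups with HA or SA libraries held an r not above 0.1, so the block over all libraries sets a pairing not seen there. Gene positions are from GENCODE release 44 and promoters from RefSeq. Alternatives were a pseudocount of 0.5, no filter, the deposited scale, a TMM scale, fits of only the groups compared, a replicate block, each library left out and, chosen after seeing the data, voom weights. One further gene list is not reported here.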

Additional observations from a re-analysis of the deposited data

Results flagged for a closer look

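Single libraries stood apart from the other 3 of their group, by a gap to the nearest library over the group's whole range above the 95% value of Dixon's test, in 3 of 48 groups of values, where chance gives about 1 in 20. IFI16 in KO library 3 was the highest of its group at 4377 normalized counts, with the other KO libraries between 2562 and 2652. TBK1 in KO LPS library 1 was the highest at 176, beside 92.4 to 101. MAVS in WT LPS library 3 was the highest at 385, beside 330 to 337. KO 3 is also the lowest KO library for DHX58. The cause was not tested for any of them.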

How the results depend on the processing

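The numbers of members called in KO against WT (3 to 4) and in SA against WT (0) held under every alternative run, and in the 3 differences of LPS response the number stayed at 0. Fitting only the groups compared left 1 member called in HA against WT untreated and 1 with LPS, and 0 for LPS in each of WT, KO, HA and SA. Without a filter on low counts 1 member was called for LPS in HA and 1 in SA, on the TMM scale 1 for LPS in HA, and with voom weights 1 for LPS in WT, IFIH1 being the one lost. The deposited scale gave 3 in HA against WT in each condition. The replicate block over all libraries gave 1 call in KO against HA untreated (DDX58) and 3 in HA against WT in each condition, DDX58 joining; in the paired fit of WT and KO libraries alone DHX58 joined for 4 in KO against WT, and the block changed no other call. Leaving out 1 library at a time gave 1 to 2 members in HA against WT with LPS, 1 to 2 for the LPS response of WT, HA and SA cells and 0 to 2 for that of KO cells, and 0 to 1 in KO against HA untreated. The cause was not tested. On the deposited scale the sign turned for uncalled values near 0: TBK1 in SA against WT untreated (0.19), MAVS in SA against WT with LPS (0.20), and TBK1 in KO against HA untreated (-0.067) and with LPS (-0.038). Leaving out 1 library turned the sign of other uncalled values, with these ranges. For DHX58 they were -1.18 to 0.58 in SA against WT with LPS, -0.35 to 1.41 for LPS in SA and -1.46 to 0.30 for the SA difference of response. For MAVS they were -0.20 to 0.0066 in KO and -0.062 to 0.14 in SA against WT untreated, -0.17 to 0.012 in SA with LPS, and -0.11 to 0.087 and -0.18 to 0.050 for LPS in WT and KO. For TBK1 they were -0.082 to 0.20 in HA and -0.20 to 0.083 in SA against WT untreated, -1.31 to 0.030 in SA with LPS, -0.083 to 0.20, -0.068 to 0.24, -0.011 to 0.23 and -1.19 to 0.15 for LPS in WT, KO, HA and SA, -1.24 to 0.10 for the SA difference of response and -0.0054 to 0.30 in KO against HA with LPS. Over all genes, calls higher and lower against WT on the deposited scale were 185 and 184 in KO and 406 and 97 in HA untreated, and 222 and 253 in KO and 280 and 72 in HA with LPS, beside 223 and 137, 176 and 137, 265 and 165, and 144 and 106 on the joint scale. With only the groups compared, calls fell to 179 from 360 in KO and to 196 from 313 in HA untreated, to 133 from 250 in HA with LPS, and for LPS itself to 14 from 31 in WT, 21 from 72 in KO, 33 from 50 in HA and 7 from 61 in SA. Without SA LPS 1, calls over all genes rose from 313 to 556 in HA untreated and from 28 to 45 untreated and 1 to 17 with LPS in KO against HA. The paired fit of WT and KO libraries alone called 1151 genes untreated and 1509 with LPS in KO against WT, beside 360 and 430, and for LPS 72 in WT and 231 in KO, beside 31 and 72. Over all libraries the replicate block gave 48 and 23 in KO against HA. Negative binomial tests of the recovered reads, which had been planned, were not run. The SE of DHX58 fell from 0.66 to 0.36 and that of TBK1 from 0.49 to 0.22 without SA LPS 1. Depth limits ZBP1 and TREX1, which had too few reads to be tested.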
